A study of Mus musculus with 8 samples.

Results

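Regions of changed hydroxymethylation were examined in 3 long mouse genes, Cdh23, Fam189a1 and Babam2. These genes were chosen from the same measurements because they hold many regions with lower signal after loss of Ogt, so the counts that chose them are a description and carry no test. Members were the regions of the authors' deposited lists whose midpoint lies in the RefSeq span of a gene extended by 1 kb at both ends. This gave 19 regions, 6 in Cdh23, 8 in Fam189a1 and 5 in Babam2, of 12594 regions in all.

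Mouse embryonic stem cells with floxed Ogt alleles (Ogt fl/fl) were grown on feeder cells. Ogt iKO cells received 4-hydroxytamoxifen (4-OHT) for 6 days and were sorted for a YFP reporter, and control cells were the same Ogt fl/fl cells grown without 4-OHT. Each condition gave 2 CMS-IP libraries and 2 input libraries, 8 samples in 4 groups. In CMS-IP, bisulfite turns 5-hydroxymethylcytosine (5hmC) into cytosine 5-methylenesulphonate, and an antibody recovers the fragments that carry it. The controls had no 4-OHT and the labels describe the YFP sort only for treated cells, so deletion of Ogt, exposure to the drug and the sort cannot be told apart. The driver of the Cre is not given in the sources used here. The deposited lists hold positions only, 1 list for regions higher and 1 for regions lower in Ogt iKO cells. They carry no value for a sample, no fold change and no depth, so no replicate error could be computed.

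TET dioxygenases oxidise 5-methylcytosine to 5hmC, mostly where C is followed by G (CpG). OGT attaches O-GlcNAc sugars to proteins and binds TET enzymes. In embryonic stem cells, 5hmC is found in gene bodies and enhancers and is scarce at strong CpG-rich promoters. Cdh23 encodes an atypical cadherin that forms the tip link of sensory hair cells together with the product of Pcdh15. Babam2, also called Bre, encodes a scaffold subunit of the BRCA1-A and BRISC complexes, which remove ubiquitin chains. Fam189a1 encodes a membrane protein whose function is little known.

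The starts of the genes differed in CpG content, and the sequences before them are shown because CpG is where 5hmC can form. Sequences are from RefSeq (GRCm38.p6, whose chromosomes are those of mm10), end at the annotated start or at the edge of the gene's own span, and run 5′ to 3′ on the gene's strand. Capitals mark CG, the only motif searched, which reads the same on both strands. Cdh23 is shown at chr10:60696514-60696740 (minus strand), Fam189a1 at chr7:65156529-65156778 (minus strand) and Babam2 at chr5:31697800-31697977 (plus strand).
Cdh23: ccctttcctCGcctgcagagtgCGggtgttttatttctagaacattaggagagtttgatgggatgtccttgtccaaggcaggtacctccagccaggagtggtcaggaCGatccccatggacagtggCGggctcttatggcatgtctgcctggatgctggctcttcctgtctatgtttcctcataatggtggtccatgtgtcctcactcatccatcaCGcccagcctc
Fam189a1: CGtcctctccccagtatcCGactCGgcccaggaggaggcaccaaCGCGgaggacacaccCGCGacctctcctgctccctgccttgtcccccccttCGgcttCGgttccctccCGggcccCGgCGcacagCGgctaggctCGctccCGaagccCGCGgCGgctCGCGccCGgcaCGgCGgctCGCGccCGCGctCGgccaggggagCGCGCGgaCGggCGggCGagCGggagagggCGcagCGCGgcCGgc
Babam2: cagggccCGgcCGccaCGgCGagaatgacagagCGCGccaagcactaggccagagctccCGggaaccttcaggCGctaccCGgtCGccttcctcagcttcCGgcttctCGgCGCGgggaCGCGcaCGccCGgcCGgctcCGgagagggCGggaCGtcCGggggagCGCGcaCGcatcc
The Cdh23 sequence held 5 CG in 227 bases, or 2.20 per 100 bases. Fam189a1 held 39 in 250 bases, or 15.6 per 100 bases, and Babam2 held 26 in 178 bases, or 14.6 per 100 bases. Over the 32851 RefSeq start windows, each cut to the 250 bases before the start, the median was 2.40 per 100 bases and 92.1% held at least 1 CG. Cdh23 thus lay near the middle of these windows, with 49.6% of them lower, while 98.4% were lower than Fam189a1 and 97.8% lower than Babam2. The Cdh23 and Babam2 sequences are shorter than these windows and lack the bases nearest the annotated start, so their ranks are approximate. No region of either list overlapped any of these 3 sequences. How many of the other start windows overlap a region was not counted, so this absence is not a finding. The region nearest to each annotated start was a lower one inside the gene, at 8.12 kb in Cdh23, 22.8 kb in Fam189a1 and 27.7 kb in Babam2.

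Cdh23 (gene ID 22295, chr10:60302748-60696513, 394 kb, minus strand) held 5 lower regions and 1 higher region. At least 4 lower regions were found in 0.0321% of the 21779 protein-coding genes, a share the choice of these genes rests on. A pair of lower regions stood close to the start of Cdh23. The first was 321 bp wide at 8.30 kb into the gene (chr10:60688055-60688375). The next, at 11.2 kb, was 1080 bp wide and the widest lower region of the 3 genes (chr10:60684780-60685859). These were only 2.19 kb apart, the shortest gap seen in the 3 genes.

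After a stretch of 168 kb with no region of either list, 3 more lower regions followed near the middle of Cdh23. A 548 bp region lay at 180 kb (chr10:60516200-60516747), or 45.7% of the way along the gene. It was followed, 31.8 kb further on, by a 200 bp region at 212 kb (chr10:60484159-60484358). The last, also 200 bp wide, came 5.47 kb later at 218 kb (chr10:60478492-60478691). Both stood at the smallest width that occurs in either list, as did 669 of the 4016 regions of the lower list. The single higher region was wider, 1488 bp, and lay at 371 kb, 94.2% of the way along the gene and 152 kb from the nearest lower region (chr10:60324886-60326373). All 5 lower regions of Cdh23 therefore lay on the start side of its higher region. Vsir, an immune checkpoint gene of 83444 bp nested in Cdh23, overlapped 0 regions of either list. Over all protein-coding genes, 20.5% held at least 1 region. Holding none was therefore the usual case over all genes, whose median length was 17.2 kb. In the class of 350 to 450 kb, 124 of 154 genes held a region. The absence in Vsir, and in the genes next to the members named below, was not set against genes of their length.

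Fam189a1 (gene ID 70638, chr7:64756091-65156528, 400 kb, minus strand) was the most mixed of the 3, with 5 lower and 3 higher regions. A pair of lower regions lay in its first part. They were 611 bp wide at 23.1 kb (chr7:65133131-65133741) and 260 bp wide at 55.2 kb (chr7:65101192-65101451). The 218 kb that followed held no region of either list.

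The other 6 regions of Fam189a1 lay between 274 and 374 kb from its start, with both directions interleaved. In the order of transcription they began with a higher region of 745 bp at 274 kb (chr7:64882285-64883029). A lower region of 565 bp stood 8.38 kb beyond it, at 283 kb (chr7:64873338-64873902). Lower regions of 258 bp at 306 kb (chr7:64850759-64851016) and of 653 bp at 346 kb (chr7:64809810-64810462) came next. Only 4.93 kb after the last of these stood a higher region of 268 bp at 352 kb (chr7:64804616-64804883), the closest opposite pair in the 3 genes. A higher region of 200 bp at 374 kb (chr7:64782590-64782789) was the last. Regions of opposite direction were thus neighbours at 3 of the 7 steps along Fam189a1.

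Babam2 (gene ID 107976, chr5:31697978-32084950, 387 kb, plus strand) held 4 lower regions and 1 higher region, spread more evenly than in the other genes. The first lower region was the widest in this gene, 828 bp at 28.2 kb (chr5:31725780-31726607). It was followed by 355 bp at 102 kb (chr5:31799799-31800153), 280 bp at 231 kb (chr5:31929043-31929322) and 432 bp at 300 kb (chr5:31997758-31998189). Gaps between these lower regions were 73.2, 129 and 68.4 kb. The higher region of 550 bp stood among them at 207 kb (chr5:31904786-31905335), 23.7 kb before the third lower region. The rest of the gene beyond the last lower region held no region of either list.

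**Figure D1:**
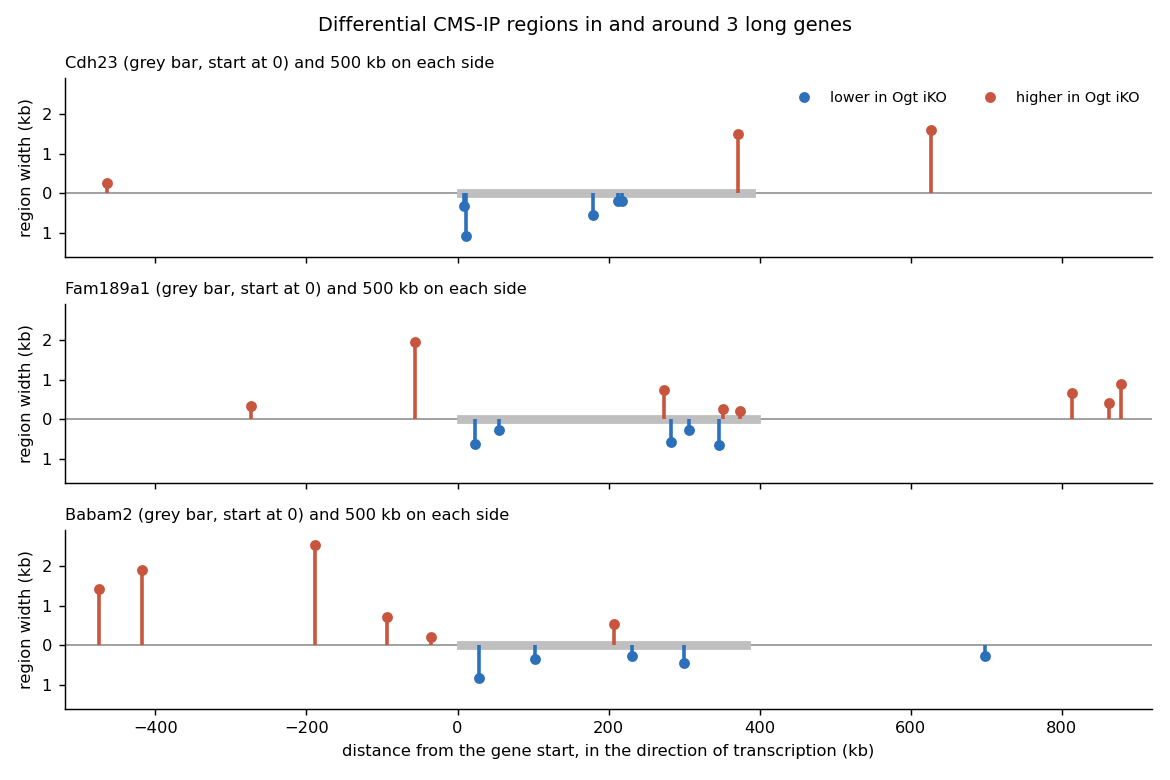
Position and width of the differential regions in the 3 genes and 500 kb on each side, drawn from each gene's start in the direction of transcription (x axis, kb). Stems give region width (kb), downward in blue for lower and upward in red for higher in Ogt iKO cells, and the grey bar is the gene. The 14 lower regions in the genes are what chose them. The flanks hold 1 lower and 12 higher regions.

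In 3 places a lower region stood close to the start of another annotated gene nested in a member. The RefSeq table lists 7 genes inside the 3 spans. The sequences before the 3 starts concerned are shown with CG in capitals, since a lower region lay just beside each. They are Nsmce3 in Fam189a1 (chr7:64873041-64873290, minus strand), which encodes a subunit of the SMC5/6 complex, and the noncoding genes Gm51803 in Cdh23 (chr10:60686907-60687156, plus strand) and Gm52770 in Babam2 (chr5:31998859-31999108, minus strand).
Nsmce3: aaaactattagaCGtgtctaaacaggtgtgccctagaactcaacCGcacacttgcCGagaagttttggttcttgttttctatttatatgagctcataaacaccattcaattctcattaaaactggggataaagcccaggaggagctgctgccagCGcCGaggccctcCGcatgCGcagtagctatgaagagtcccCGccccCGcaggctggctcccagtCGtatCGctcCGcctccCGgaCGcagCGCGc
Gm51803: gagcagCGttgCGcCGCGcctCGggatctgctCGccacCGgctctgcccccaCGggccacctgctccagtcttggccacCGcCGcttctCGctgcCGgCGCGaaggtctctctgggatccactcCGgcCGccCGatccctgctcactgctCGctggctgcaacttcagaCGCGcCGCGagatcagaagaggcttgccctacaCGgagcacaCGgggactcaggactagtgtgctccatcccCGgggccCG
Gm52770: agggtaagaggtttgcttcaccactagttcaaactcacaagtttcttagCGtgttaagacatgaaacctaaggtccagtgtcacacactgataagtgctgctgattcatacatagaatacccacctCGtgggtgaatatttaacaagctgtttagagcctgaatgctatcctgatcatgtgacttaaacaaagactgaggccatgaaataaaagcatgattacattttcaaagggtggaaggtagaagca
The 565 bp lower region of Fam189a1 began 298 bp before the start of Nsmce3 and did not overlap that gene. The 321 bp lower region of Cdh23 lay within Gm51803, with its nearer edge 898 bp from that gene's start. In Babam2, the 432 bp lower region lay within Gm52770, 669 bp from its start. These starts do not share a CpG content: 6.40 CG per 100 bases before Nsmce3, 10.4 before Gm51803 and 0.800 before Gm52770. None of the 3 sequences overlapped a region, which was likewise not set against other start windows.

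Measured from midpoints, 2 of the 14 lower regions (14.3%) lay within 1 kb of an annotated start, those beside Nsmce3 and Gm52770, and the one in Gm51803 lay at 1.06 kb. Over the lower list, 4.57% of the 3871 regions on chromosomes with annotated starts did so. None of the 5 higher regions in the genes lay within 1 kb of a start, against 2.03% of the higher list. The 1 kb window was set after these positions had been seen. Only 2 regions stand behind the first share, too few to set against the list. The gene table gives no exons, so exons and introns were not told apart.

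The widths of the lower regions in the 3 genes spread around the median of the whole lower list. Their 14 widths ran from 200 to 1080 bp with a median of 394 bp and quartiles of 265 and 600 bp. The whole lower list had a median of 320 bp and quartiles of 221 and 616 bp. In the other genes of 350 to 450 kb, the 89 lower regions had a median of 276 bp and quartiles of 200 and 398 bp. Whether the widths differ was not tested. The 5 higher regions in the genes ran from 200 to 1488 bp with a median of 550 bp, beside 542 bp in the whole higher list. By gene, the median of the lower regions was 321 bp in Cdh23, 565 bp in Fam189a1 and 394 bp in Babam2. In Fam189a1 the lower regions were wider by median only. Its 3 higher regions had a median of 268 bp, but the widest region of the gene was a higher one of 745 bp. In both other genes the single higher region was wider than the median lower one. Counted in base pairs, lower regions covered 2349 bp against 1488 bp higher in Cdh23, 2347 against 1213 bp in Fam189a1 and 1895 against 550 bp in Babam2.

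**Figure D2:**
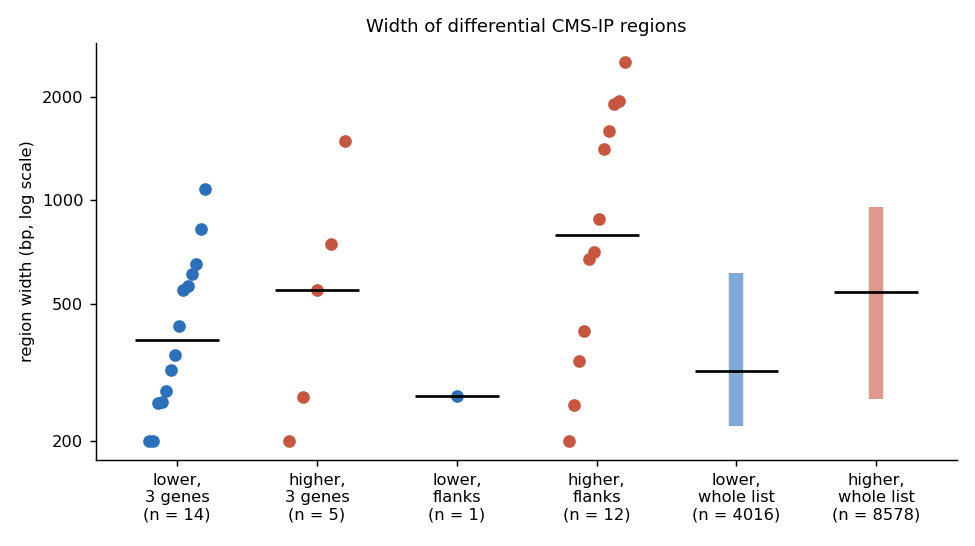
Width of each differential region (y axis, bp, log scale) in the 3 genes and in their flanking 500 kb, with the median as a black line. For the whole lists the coloured bar spans the quartiles; the 14 lower regions of the genes have a median of 394 bp, within the quartiles of the lower list, and the 12 higher regions of the flanks reach 2532 bp.

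Spacing was uneven within Cdh23 and Fam189a1 and more regular within Babam2. The 11 gaps between neighbouring lower regions of a gene ranged from 2.19 to 227 kb with a median of 40.3 kb. Medians were 18.7 kb in Cdh23, 36.0 kb in Fam189a1 and 73.2 kb in Babam2. Without Cdh23, or without Fam189a1, the pooled median rose to 68.4 kb. Across all chromosomes, neighbouring lower regions were a median of 337 kb apart. A gene with 4 or 5 lower regions in under 0.402 Mb must have shorter gaps than that, so this distance is not a finding. In the other protein-coding genes of 350 to 450 kb, the 22 gaps between lower regions of the same gene had a median of 66.3 kb. Those genes held at most 3 lower regions each, so their gaps are not a like comparison either and no difference is read from them.

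Adjacent regions of either list shared their direction in 10 of 16 steps along the 3 genes, 4 of 5 in Cdh23, 4 of 7 in Fam189a1 and 2 of 4 in Babam2. Over both whole lists, 57.9% of adjacent pairs did. This share depends on the mix of directions, which chose these genes, so its value there is not a finding. Along the gene, divided into 3 equal parts, the part nearest the start held 6 lower and 0 higher regions, with 2 lower in each gene. The middle part held 4 lower and 1 higher, and the part nearest the end 4 of each. In the other genes of 350 to 450 kb with a known strand, the same parts had lower shares of 33.3% (27 of 81), 26.1% (23 of 88) and 25.0% (23 of 92). All 5 higher regions of the 3 genes lay beyond their first part. These positions come from the regions that chose the genes and were not tested.

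The flanks of the 3 genes held mostly higher regions. Within 500 kb beyond the spans, 12 of 13 regions were higher and 1 was lower, a lower share of 7.69% (95% exact Clopper-Pearson interval 0.195 to 36.0%, counting error only). Over both lists 31.9% of the 12594 regions were lower. That value is inside the interval, which counts regions as if independent and is not a test. Whether the flanks differ from the rest of the genome was not tested. The flanks were not used to choose the genes, but regions in the genes were, and no test was made between them.

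Around Cdh23, the flanks held 0 lower and 2 higher regions. One, 1594 bp wide, lay in Ascc1, which encodes a transcription coactivator subunit, 234 kb beyond the end of Cdh23 (chr10:60068432-60070025). The other, 255 bp wide, lay between genes 464 kb before its start (chr10:61160162-61160416). The protein-coding genes directly next to it, Psap at 0.147 kb and Slc29a3 at 15.6 kb, overlapped 0 regions. Psap encodes the precursor of the saposins, which help to degrade lipids in lysosomes, and Slc29a3 a nucleoside transporter. The next lower regions outside Cdh23 were 732 kb beyond its end and 1232 kb before its start.

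Around Fam189a1, the flanks held 0 lower and 5 higher regions. The widest, 1952 bp, lay 56.2 kb before the gene start and overlapped the noncoding gene 1810049I09Rik (chr7:65211724-65213675). Another of 342 bp lay 273 kb before the start in Tjp1, the gene for the tight junction protein ZO-1 (chr7:65429514-65429855). Beyond the gene end, Apba2, only 2.21 kb away, overlapped 0 regions. The other 3 higher regions were 412 to 478 kb away, 1 of them in Mtmr10 and the others between genes. The nearest lower regions outside were 570 kb beyond the end and 636 kb before the start.

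Around Babam2, higher regions lay only before the gene start and the lower one only beyond its end. The 5 higher regions were 35.0 to 474 kb before the start and included the widest region in any of the flanks, 2532 bp in Gpn1, the gene for a GTPase of RNA polymerase II assembly (chr5:31507445-31509976). Others lay in Ift172, a gene of intraflagellar transport (1909 bp), in the noncoding gene Gm38424 (708 bp), and where Gm38424 overlaps the ribokinase gene Rbks (200 bp). The remaining one, 1415 bp wide, lay between Ppm1g and Nrbp1. The lower region, 271 bp wide, lay between genes 311 kb beyond the end (chr5:32395379-32395649). Fosl2, the next protein-coding gene on that side at 51.5 kb, overlapped 0 regions.

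Per length, lower regions were at 11.8 per Mb in the 3 spans and 0.333 per Mb in the flanks. Higher regions were at 4.21 per Mb in the spans and 4.00 per Mb in the flanks. Over all chromosomes there were 1.48 lower and 3.15 higher regions per Mb. The other 151 genes of 350 to 450 kb had 1.48 lower and 4.37 higher regions per Mb. The high lower density in the spans is what chose the genes. In the first 250 kb of the flanks there were 0 lower and 5 higher regions, and from 250 to 500 kb 1 lower and 7 higher.

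**Figure D3:**
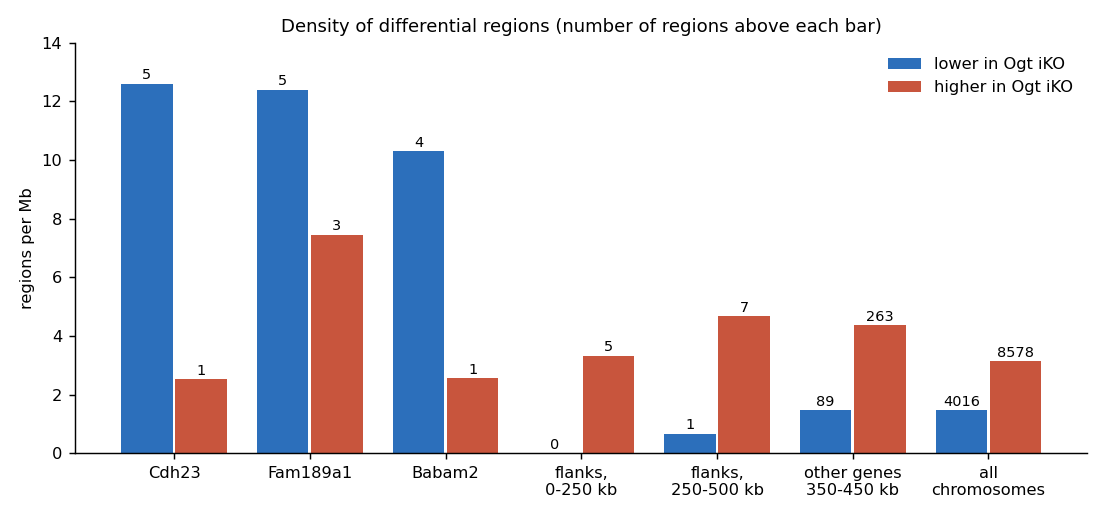
Lower (blue) and higher (red) differential regions per Mb (y axis) in each gene, in 2 parts of the flanks of the 3 genes together, in the other protein-coding genes of 350 to 450 kb and over all chromosomes, with the number of regions above each bar. Higher regions are at 4.21 per Mb in the 3 genes together and 4.00 per Mb in their flanks, while lower regions are at 11.8 and 0.333 per Mb. The density of lower regions in the genes is what chose them.

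The label of mostly lost regions held for each gene by count, but least for Fam189a1, where 62.5% of regions were lower, against 83.3% in Cdh23 and 80.0% in Babam2. Among protein-coding genes with any region, 26.7% of 4461 had more lower than higher ones. This share was 7.86% of the 140 genes with at least 5 regions, which are 11 genes with the 3 members among them. In the length class of 350 to 450 kb, it was 16.9% of 124 genes with a region. Among the other 151 genes of this class, 30 held no region, 85 had more higher, 18 had more lower and 18 had equal numbers. Their highest count of lower regions was 3.

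In all, 7 protein-coding genes held at least 4 lower regions. Besides the 3 members these included Cntnap2 (4 lower and 0 higher), a neuronal adhesion gene of 2241 kb, Ryr2 (4 and 2), a calcium release channel gene of 554 kb, and Cdh13 (4 and 12), a cadherin gene of 1185 kb. Babam2 was chosen with 4 lower regions, while Cntnap2 and Ryr2 with the same number were not. The excess of lower over higher regions was 4 in Cntnap2 and 3 in Babam2, so the choice does not follow that order. A further 36 genes held 3 lower regions.

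Likeness to the members was taken as at least 3 lower regions and more lower than higher ones. By this measure 28 genes qualified, the 3 members included, with a median length of 219 kb, and 10 of them were 350 kb or longer. After Cntnap2, the genes with the largest excess of lower regions each held 3 lower and 0 higher. They were Ccnd1, Cdhr3, Gm4869, Igsf21, Kdm4c, Man1c1, Nhsl1, Osbpl1a and Ptk2 by alphabetical order, with Sik3 equal to them. Ccnd1 encodes cyclin D1, Kdm4c a histone demethylase and Ptk2 focal adhesion kinase. Their lengths ran from 9.90 kb in Ccnd1 to 220132 bp in Igsf21.

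**Figure D4:**
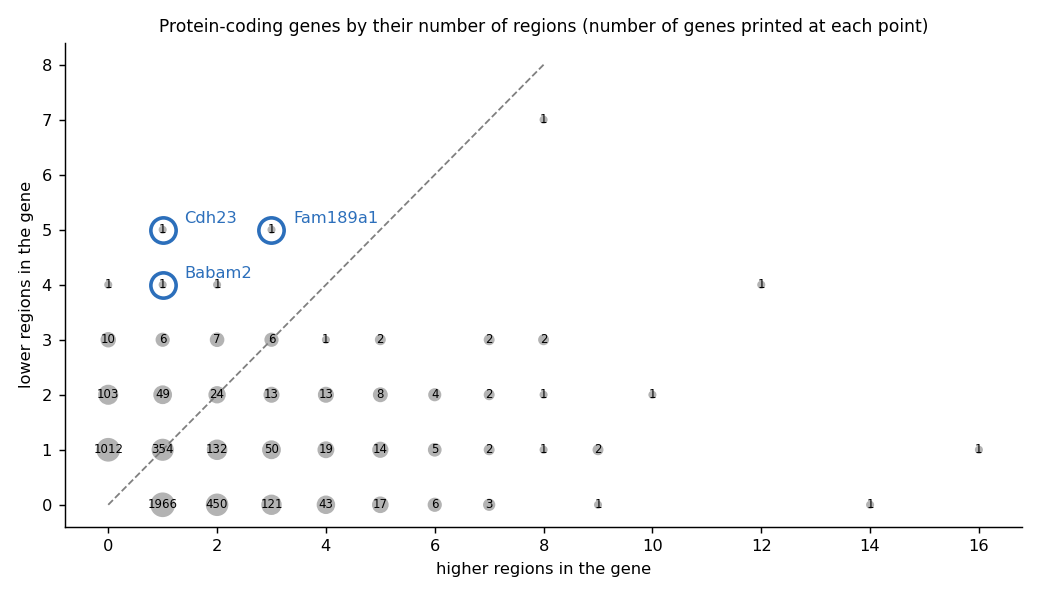
Protein-coding genes with at least 1 differential region, placed by their number of higher (x axis) and lower regions (y axis), with the number of genes printed at each point and the dashed line marking equal numbers. Cdh23 (1 higher, 5 lower), Fam189a1 (3 and 5) and Babam2 (1 and 4) lie above the line, where 1192 of the 4461 genes fall.

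Regions of both directions were found among the listed partners of Cdh23. The 6 regions among those of Babam2 and the 1 among the relatives of Fam189a1 were higher. Both counts are too small to set against the share of all regions. Of all protein-coding genes, 20.5% held at least 1 region, and 31.9% of all regions were lower. Of 13 listed partners of Cdh23 in the hair cell and tip link group, 4 held a region, with 5 lower and 9 higher regions in all, a lower share near that of all regions. Pcdh15, the tip link partner itself and a gene of 1554 kb, held 2 lower and 3 higher regions. Whrn, a scaffold gene of 81.2 kb, held 2 lower regions of 751 and 271 bp and 0 higher. Tmc1, a subunit of the hair cell transduction channel, held 1 lower and 2 higher. Adgrv1, the gene for a large adhesion receptor, held 4 higher regions and 0 lower.

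Of 11 listed partners of Babam2 in the BRCA1-A and BRISC complexes and their neighbours in DNA repair, 4 held a region. All 6 of these regions were higher, too few to set against the share of all regions. Uimc1, whose product brings the BRCA1-A complex to ubiquitin at DNA breaks, held 2 of 1347 and 947 bp. Abraxas2, the scaffold gene of BRISC, held 1 of 2440 bp, Brca1 held 1 of 1103 bp and the helicase gene Brip1 held 2 of 226 and 200 bp. Of the other members of the Fam189a1 family, Fam189a2 held 1 higher region of 1578 bp and Fam189b held 0. Median gene lengths were 43.1 kb in the Cdh23 list and 41.1 kb in the Babam2 list, against 17.2 kb over all protein-coding genes. Absence from both lists does not mean that a gene kept its 5hmC, because neither the sites tested by the authors nor their depth is known.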

How the data were processed

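The data are 2 lists of genomic regions in mm10 coordinates that the authors deposited from CMS-IP of 2 Ogt iKO and 2 control libraries, with chromosome, start and end as their 3 columns. The submitters' processing notes name Bismark, MACS2 and mm10 with no role; how differences were tested, with which threshold, and how replicates, inputs and spike-ins entered is not given in the sources used here. Depth is unknown. No region is narrower than 200 bp and no neighbours are closer than 1001 bp, which bounds widths and gaps from below. The name of the lists spells the knockout with an extra letter and was read as Ogt iKO.

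Region starts were read as 0-based BED positions, and all printed positions count from 1. Gene spans are those of RefSeq (GRCm38.p6), with 49603 of 49997 entries used; entries below 3 Mb outside Y, which lie on scaffolds, were left out. Strands came from RefSeq starts of 27025 genes. A region belongs to a gene by its midpoint and can count in overlapping genes. Python 3.11.15, numpy 2.4.6, pandas 2.3.3 and scipy 1.17.1 were used, and counting was tested on simulated data. Named genes are the members, genes inside or next to them, genes holding a flank region, listed pathway genes holding a region, and up to 10 genes most like the members; 2 genes that these rules or counts include are not reported here. Members, lists and rules were chosen with earlier results of these data known. No test was made, since regions are not replicates.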

Additional observations from a re-analysis of the deposited data

How the results depend on the processing

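For 8 results and 46 recomputed values, 44 stayed within the counting error of the main value, which is wide at these numbers. The lower share of the Babam2 flanks, 16.7%, became 0% within 250 kb and 0% among regions of at least 453 bp, the median of both lists, since its single lower region lies outside both. Within 1 Mb the flank shares were 25.0% (2 of 8) for Cdh23, 14.3% (2 of 14) for Fam189a1 and 23.1% (3 of 13) for Babam2. Counted in base pairs, the lower share of the Cdh23 span was 61.2% against 83.3% by regions. With regions of the same direction within 10 kb counted once, it was 75.0% (3 of 4). Its lower count then fell below the level of at least 4 used above. Among the wider regions Babam2 held 1 lower and 1 higher. Extending the spans by 0 or 10 kb, or taking any overlap, selected the same numbers in each gene. The median gap of 40.3 kb became 68.4 kb without Cdh23 or without Fam189a1 and 31.8 kb without Babam2, and its mean was 72.7 kb. No paired analysis was possible because only positions are given and none per library, which also leaves no replicate to leave out.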

Other observations

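In the length class of the 3 genes, 2 others reached 3 lower regions, named here after their values were seen. Rbfox3, a neuronal splicing factor gene of 422 kb on chromosome 11, held 3 lower regions of 317, 200 and 256 bp at 108, 203 and 219 kb from its start, and 1 higher region of 1163 bp further on, at 259 kb. Grik4, a kainate receptor subunit gene of 427 kb on chromosome 9, held lower regions of 234 and 200 bp at 26.7 and 28.0 kb and of 200 bp at 170 kb. Its higher regions of 1527 and 387 bp lay at 148 and 334 kb. In both, as in Cdh23 and Fam189a1, the region nearest the gene end was higher, while in Babam2 it was lower. Higher regions were the more common in this length class, 263 of 352 in the genes other than the 3 members. In the part nearest the end, where the strand was known, 69 of 92 were higher. How often the region nearest the end is higher was not counted by gene, so this order is not a finding.

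Ccnd1, the gene for cyclin D1, had the shortest span among the 28 genes with at least 3 lower and more lower than higher regions, 9.90 kb. Its lower regions were 468, 456 and 664 bp wide (chr7:144932405-144932872, chr7:144934085-144934540 and chr7:144935679-144936342), with no higher region in the gene.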
